A study of Mus musculus with 20 samples.

Results

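The 8 genes described here encode the auxiliary subunits of voltage-gated calcium channels, the alpha2-delta subunits Cacna2d1, Cacna2d2, Cacna2d3 and Cacna2d4 and the beta subunits Cacnb1, Cacnb2, Cacnb3 and Cacnb4. They were listed by name and taken by Ensembl identifier from a table of 37620 genes, and all 8 were found in it. Their transcripts were sequenced in sorted Trpv1 neurons of dorsal root ganglia (DRG), and 5 male and 5 female donors each gave a lumbar library (L4-5) and a sacral library (L6-S1), 20 in all. All donors were untreated Homozygous Trpv1tm2Bbm mice (TrpV1 PLAP-nLacZ) of 6 to 8 weeks, in which the Trpv1 locus drives a beta-galactosidase reporter, and no group without the reporter was included. The sort kept the brightest cells after a fluorescent beta-galactosidase substrate, so it is an enrichment and not a pure population. Each donor label carries 2 animal numbers and nothing says whether their cells were pooled, and lumbar and sacral libraries with the same numbers were treated as a pair.

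An alpha1 subunit forms the pore of a voltage-gated calcium channel. The intracellular beta subunit binds the loop between the first pair of alpha1 domains and aids delivery of high-voltage-activated channels to the membrane and their gating, and the extracellular alpha2-delta subunit raises the amount of channel at the surface and at presynaptic terminals. In DRG neurons these channels trigger transmitter release onto the spinal dorsal horn, and alpha2-delta-1 is known to rise in DRG after nerve injury. The gabapentinoid drugs gabapentin and pregabalin, used for neuropathic pain, bind alpha2-delta-1 and alpha2-delta-2 and not the other alpha2-delta proteins.

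Gabapentin binding needs a triplet of arginines just before the von Willebrand factor A domain of alpha2-delta, and the aspartate-x-serine-x-serine motif in that domain is its metal ion site. The stretch of coding sequence from just before the triplet to the end of the motif is shown for the 4 alpha2-delta genes because it is where the drug-binding pair differs from the other pair. The codons of both sites are in capitals, the sequences run 5′ to 3′ and join coding exons, and the intervals (build NCBIM37, introns included) are chr5:15770126-15773203 (plus strand), chr9:107414672-107415573 (plus strand), chr14:30160157-30160327 (minus strand) and chr6:119217866-119218274 (plus strand).
Cacna2d1: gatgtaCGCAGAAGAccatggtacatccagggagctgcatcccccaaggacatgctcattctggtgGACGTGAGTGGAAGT
Cacna2d2: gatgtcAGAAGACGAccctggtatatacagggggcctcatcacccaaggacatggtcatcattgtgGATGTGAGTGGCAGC
Cacna2d3: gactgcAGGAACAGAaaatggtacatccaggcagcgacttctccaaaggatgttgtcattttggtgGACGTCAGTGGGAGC
Cacna2d4: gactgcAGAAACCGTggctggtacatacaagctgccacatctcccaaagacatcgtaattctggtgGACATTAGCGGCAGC

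Over these 81 bases Cacna2d2 differed from Cacna2d1 at 18 bases, Cacna2d3 at 24 and Cacna2d4 at 29. The first block codes for arginine, arginine, arginine in Cacna2d1 and Cacna2d2 and for arginine, asparagine, arginine in Cacna2d3 and Cacna2d4. The second block keeps aspartate, serine and serine at their places in all 4 genes. The pair with the full triplet was also the pair with the most alpha2-delta RNA in these neurons, as given next.

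Levels are given as deposited, on the log2 RPKM scale (reads on a gene set against its length and the size of the library), so different genes can be compared with each other. Libraries held between 43906576 and 66407321 reads on genes. Per kilobase, Cacnb3 and Cacna2d1 were the most abundant of the 8 transcripts. In lumbar libraries the means were 4.93 ± 0.35 for Cacnb3 and 4.75 ± 0.47 for Cacna2d1 (log2 RPKM, SD, n = 10). In sacral libraries Cacna2d1 was first, at 5.58 ± 0.23, and Cacnb3 followed at 5.43 ± 0.26. The values of these neighbours overlapped at both levels, and the order held in 7 of 10 lumbar and 8 of 10 sacral libraries.

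Cacna2d2 and Cacnb4 came next. Cacna2d2 was at 3.23 ± 0.41 in lumbar and 3.95 ± 0.22 in sacral libraries, and Cacnb4 at 3.03 ± 0.25 and 3.56 ± 0.24. Their values overlapped, although Cacna2d2 was above Cacnb4 in 9 of 10 lumbar and 10 of 10 sacral libraries. Cacnb1 and Cacna2d3 followed, at 1.24 ± 0.39 and 0.84 ± 0.43 in lumbar libraries, with overlapping values and the same order in 9 of 10 libraries at each level. Cacnb2 was lower, at -0.46 ± 0.37 in lumbar and -0.36 ± 0.32 in sacral libraries. The values of Cacna2d1 or Cacnb3 and of Cacna2d2 did not overlap at the step between them, nor did those of Cacnb4 and Cacnb1, or of Cacna2d3 and Cacnb2.

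Cacna2d4, known chiefly from photoreceptors, was barely detected. It had a value in 13 of 20 libraries, which rested on 1 to 14 reads and lay between -8.61 and -4.56, and in the other 7 libraries it had no value. It was below the limit on low values and was not tested, so 7 of the 8 genes entered the comparisons.

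As a share of the summed RPKM of the 4 alpha2-delta genes, Cacna2d1 made up 70.4% ± 3.81 in lumbar and 72.7% ± 2.06 in sacral libraries (SD, n = 10). Cacna2d2 made up 24.8% ± 3.43 and 23.5% ± 2.05, and Cacna2d3 4.80% ± 0.981 and 3.76% ± 0.732. The share of Cacna2d3 was higher in the lumbar library of 8 of 10 donors and that of Cacna2d1 higher in the sacral library of 6 of 10. Of the beta genes, Cacnb3 made up 72.9% ± 2.35 in lumbar and 72.8% ± 2.76 in sacral libraries, Cacnb4 19.6% ± 2.14 and 20.1% ± 2.54, and Cacnb1 5.70% ± 0.717 and 5.76% ± 0.465. Cacnb2 was at 1.85% ± 0.676 and 1.37% ± 0.345. One gene of each family thus held most of its RNA at both levels, and these shares are a description without a test.

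**Figure D1:**
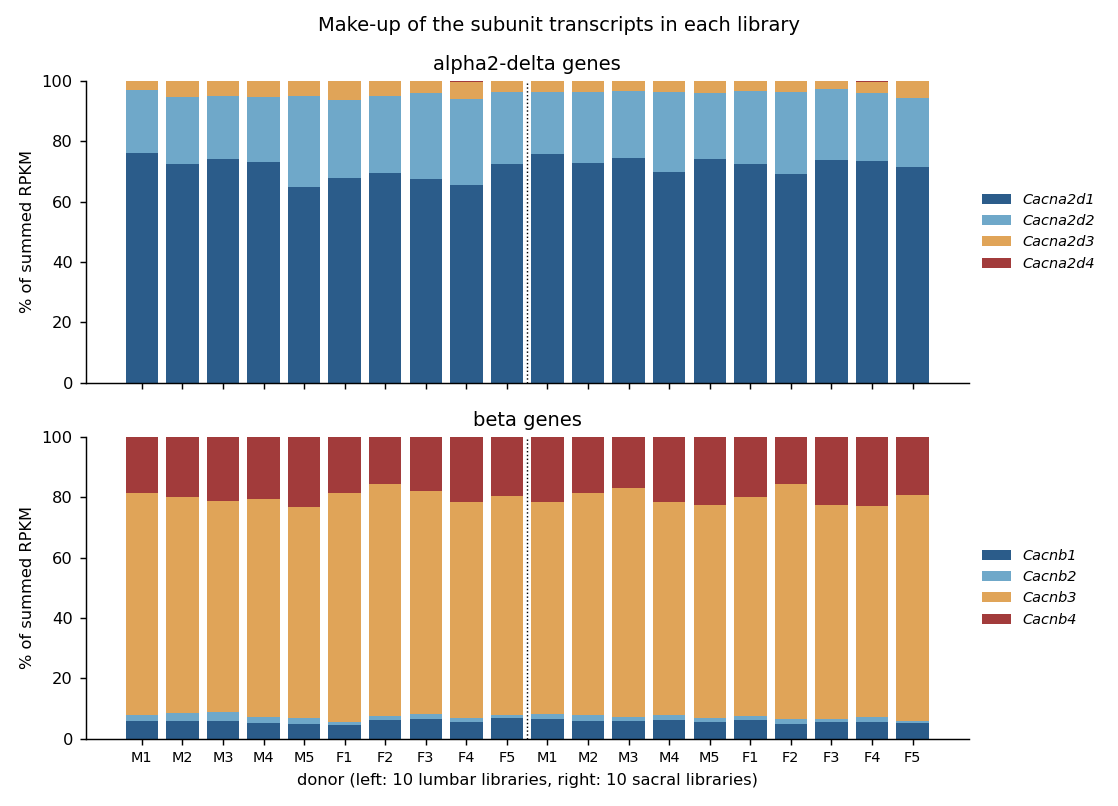
Stacked bars give each gene's percent of the summed RPKM of the 4 alpha2-delta genes (top) and the 4 beta genes (bottom) in each library, with the 10 lumbar libraries left and the 10 sacral libraries right of the dotted line, named by donor. Cacna2d1 held 65% to 76% of the alpha2-delta RNA and Cacnb3 69.8% to 78% of the beta RNA in every library.

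The comparison of lumbar with sacral Trpv1 neurons addresses which transcripts distinguish the ganglia that innervate pelvic organs. Of the 7 subunit genes tested, 6 were upregulated in sacral neurons (Cacna2d1, Cacna2d2, Cacna2d3, Cacnb1, Cacnb3 and Cacnb4) and none in lumbar neurons (limma, adjusted p at most 0.05 over 16304 genes). Over all genes tested, 30.4% were upregulated in sacral and 15.3% in lumbar neurons. The median difference, lumbar minus sacral, was -0.52 on the log2 scale over the 7 genes and -0.11 over all genes. Of all genes called, 66.5% had more in sacral neurons, against 50.8% with TMM scaling and 88.2% with scaling to total reads. Scaling to total reads moved the median of all genes to -0.44 and TMM scaling moved it to 0.00. Both scalings add 1 constant per library and so shift all genes alike. The median of the 7 genes thus stayed 0.41 below that of all genes by construction, which is no check of the gap. A negative value means more in sacral neurons throughout. In sorted bulk RNA, fewer cells of a type and less RNA per cell cannot be told apart.

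Markers moved with this comparison. The 5 neuronal markers (Tubb3, Uchl1, Snap25, Rbfox3, Eno2) were each upregulated in sacral libraries, and their summed RPKM ran from 610 to 1004 in lumbar and from 890 to 1226 in sacral libraries. Of 7 genes of Trpv1 neurons, 5 were upregulated in sacral libraries, Trpv1 itself at -0.96 ± 0.15 (SE). Calca and Tac1 were at 0.16 ± 0.09 and -0.10 ± 0.08 (SE) and were not called. With TMM scaling 4 of the 5 neuronal markers were called in sacral libraries. Of the 7 Trpv1-neuron genes, 5 were then called in sacral and 1 in lumbar libraries. Of 10 glial markers, 9 were upregulated in lumbar libraries and none was at 0, with a summed RPKM of 2039 to 4047 in lumbar and 1256 to 2119 in sacral libraries. Upregulated in lumbar libraries were also 2 of 3 tested immune, 4 of 5 vessel, 4 of 5 fibroblast and 2 of 4 tested large-neuron markers. The vessel marker Rgs5 was called the other way, at -0.37 ± 0.12 (SE). Of those not called, Dcn (fibroblast) and Ntrk3 (large neuron) were at -0.35 ± 0.19 and -0.27 ± 0.13. Cd68 (immune) and Calb1 (large neuron) were at 0.47 ± 0.30 and 0.13 ± 0.23 (SE). Median summed RPKM was 102 in lumbar and 121 in sacral libraries for the fibroblast list, and 152 and 159 for the vessel list. For the immune and large-neuron lists it was 13 and 5.54, and 15 and 10.5. The 5 skeletal muscle markers summed to an RPKM of at most 0.783. The part of these markers in the level effects was not tested, beyond the values set against neuronal markers that are given further on.

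**Figure D2:**
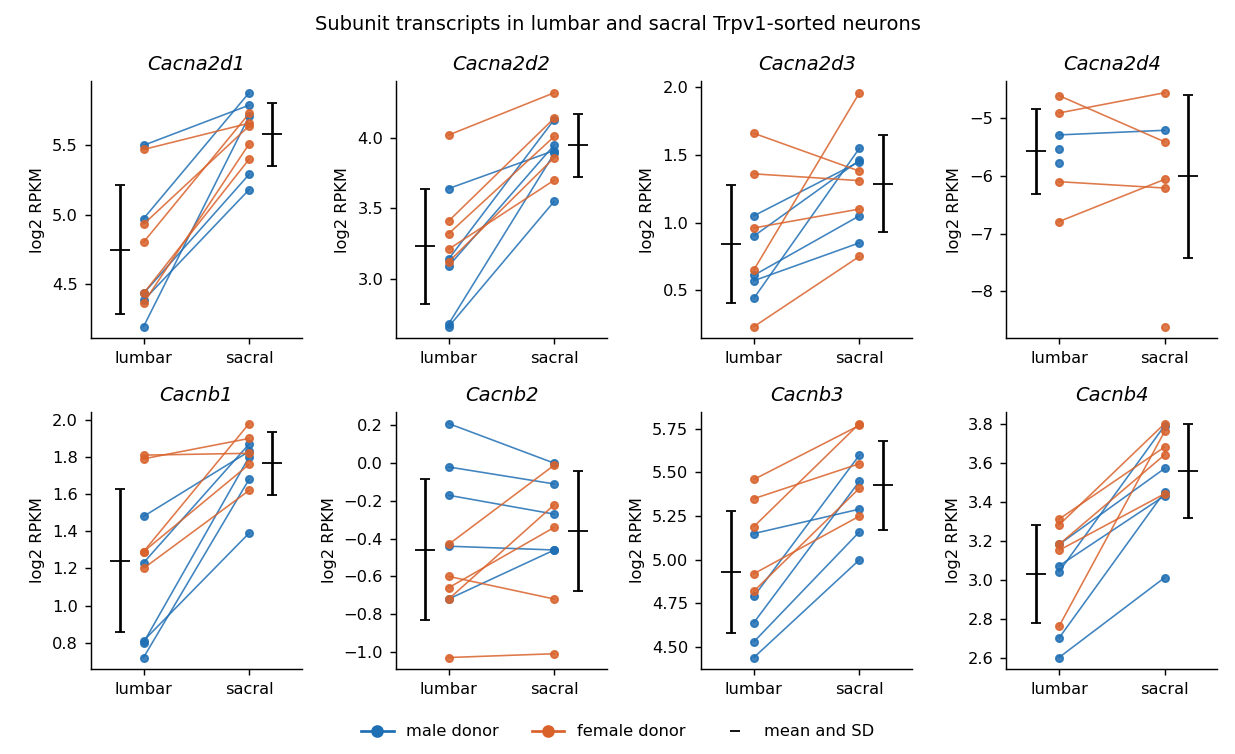
Each panel plots log2 RPKM of 1 gene in the lumbar and sacral library of each donor, joined by a line (blue male, orange female), with the mean and SD over libraries with a value in black. For Cacna2d1, Cacna2d2, Cacnb1, Cacnb3 and Cacnb4 the sacral point was the higher one in 10 of 10 donors. The vertical scale differs between panels.

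Cacna2d1 (ENSMUSG00000040118, chr5:15440509-15880329), the main gabapentinoid target, had the largest difference of the 7. Its lumbar libraries ran from 4.19 to 5.50 with a median of 4.61, and its sacral libraries from 5.18 to 5.88 with a median of 5.65. The levels overlapped through the lumbar libraries of male donor 1 and female donor 2, which reached 5.50 and 5.47, and the other 8 lumbar libraries lay below all sacral ones. These libraries were also among the 3 lumbar libraries with the highest mean of the neuronal markers, at 6.73 and 6.84, and the third, of female donor 5 at 6.96, had Cacna2d1 at 4.93. The difference was -0.83 ± 0.14 (SE, adjusted p = 8.4e-05, limma), which is 1.78-fold more in sacral neurons. It was negative in 10 of 10 donors, from -1.51 to -0.19, as was the case for 14.6% of the 15318 genes tested that had a value in every library. An exact sign-flip permutation test over the donors gave p = 0.002, the smallest it can give. Between 5777 and 28264 reads lay behind each value.

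Cacna2d2 (ENSMUSG00000010066, chr9:107301943-107431677), the second gabapentinoid target, followed the same course. Lumbar libraries ran from 2.66 to 4.02 (median 3.18) and sacral libraries from 3.55 to 4.32 (median 3.93). Of the lumbar libraries, 8 lay below all sacral ones, and the exceptions were again male donor 1 and female donor 2. The difference was -0.72 ± 0.12 (SE, adjusted p = 5.9e-05, limma), or 1.64-fold more in sacral neurons, in 10 of 10 donors. An annotated gene on the opposite strand, Gm17141, shares 82 exonic bases with it and was at a mean of -2.32 in lumbar and -2.78 in sacral libraries.

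Cacna2d3 (ENSMUSG00000021991, chr14:29718133-30535050), implicated in heat nociception in flies and mice, differed less clearly. Lumbar libraries ran from 0.23 to 1.66 (median 0.78) and sacral libraries from 0.75 to 1.96 (median 1.34) and the ranges overlapped widely. The difference was -0.44 ± 0.16 (SE, adjusted p = 0.029, limma), with more in the sacral library of 8 of 10 donors. Female donors 1 and 2 went the other way, by 0.05 and 0.28, and male donor 5 and female donor 5 had the largest differences, -1.11 and -1.31. Without female donor 5 the difference was -0.32 and the call was lost, as it was without male donor 5, at -0.37 (adjusted p = 0.11 and 0.083, limma). With TMM scaling it was -0.33, also not a call, and over 29 alternatives the adjusted p ran from 4.1e-04 to 0.91.

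Of the beta genes, Cacnb3 (ENSMUSG00000003352, chr15:98462651-98474961), the beta subunit long associated with neuronal N-type channels, ran from 4.44 to 5.46 (median 4.87) in lumbar and from 5.0 to 5.78 (median 5.43) in sacral libraries. The sacral values sat above the lumbar value of the same donor in 10 of 10 donors, while the ranges overlapped. The difference was -0.50 ± 0.10 (SE, adjusted p = 3.1e-04, limma), 1.41-fold more in sacral neurons. It is the only one of the 8 genes that overlaps no other annotated gene.

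Cacnb4 (ENSMUSG00000017412, chr2:52283845-52532350), the gene mutated in the lethargic mouse, ran from 2.60 to 3.31 (median 3.11) in lumbar and from 3.01 to 3.80 (median 3.61) in sacral libraries. Of its sacral libraries, 9 of 10 lay above all lumbar ones, and the sacral library of male donor 2, at 3.01, was the exception. Only 3 of its lumbar libraries lay below all sacral ones. The difference was -0.53 ± 0.09 (SE, adjusted p = 1.2e-04, limma), 1.45-fold, in 10 of 10 donors. The opposite-strand gene A430018G15Rik shares 1433 exonic bases with Cacnb4 and had a mean of 3.63 in lumbar and 4.20 in sacral libraries, a difference of -0.57 ± 0.10 (SE). The use of strand in counting is not stated, so reads of these genes in the shared bases cannot be told apart.

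Cacnb1 (ENSMUSG00000020882, chr11:97862822-97884348), best known as the skeletal muscle beta subunit, ran from 0.72 to 1.81 (median 1.26) in lumbar and from 1.39 to 1.98 (median 1.81) in sacral libraries. Of the lumbar libraries, 7 lay below all sacral ones. The difference was -0.52 ± 0.11 (SE, adjusted p = 6.3e-04, limma), 1.44-fold, and it was below 0 in 10 of 10 donors, from -1.0 in male donor 5 to -0.00 after rounding in female donor 2.

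Cacnb2 (ENSMUSG00000057914, chr2:14525933-14909535), the chief beta subunit of heart muscle, was the exception among the tested genes. Lumbar libraries ran from -1.03 to 0.21 (median -0.52) and sacral libraries from -1.01 to -0.00 (median -0.30). The sacral library was the higher one in 5 of 10 donors and the ranges nearly coincided. The difference was -0.10 ± 0.16 (SE, 95% confidence interval -0.43 to 0.23, adjusted p = 0.63, limma), so a difference of the size seen in the other beta genes was outside its interval. With TMM scaling it stood at 0.01, and with scaling to total reads it stood at -0.43 and passed the threshold. Between 211 and 539 reads lay behind each value, about as many as for Cacna2d3, which had 189 to 970. The opposite-strand genes Gm10849 and Gm13269, which share 253 and 236 of its exonic bases, had no value in some libraries and means of at most -2.44.

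For none of the 7 genes did the lumbar and sacral libraries fail to overlap, whereas the libraries were apart, with the sacral ones higher, for 205 of the 15318 genes with a value in every library (1.34%). Summed over the family, the alpha2-delta genes were at 39.8 ± 12.8 RPKM in lumbar and 66.5 ± 9.49 in sacral libraries and the beta genes at 42.7 ± 9.22 and 59.7 ± 8.93 (SD, n = 10), both higher in the sacral library of 10 of 10 donors.

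The same contrast was read within each sex. In males 5 genes were upregulated in sacral neurons (Cacna2d1, Cacna2d2, Cacnb1, Cacnb3 and Cacnb4), against 20.2% of all genes, and in females 4 (Cacna2d1, Cacna2d2, Cacnb3 and Cacnb4), against 16.8% (limma, adjusted p at most 0.05). Cacna2d1 stood at -0.88 ± 0.20 in males and -0.79 ± 0.20 in females, and Cacnb4 at -0.53 ± 0.13 in both (SE). Cacnb1 was at -0.71 ± 0.15 in males and -0.34 ± 0.15 in females, where its adjusted p was 0.11. Cacna2d3 was at -0.56 ± 0.23 in males and missed the threshold (adjusted p = 0.067), but passed it in a fit of the male donors alone (adjusted p = 0.036, limma), where 6 genes were called. Passing in one sex and not the other is no test of a difference.

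Tested directly, the level effect differed between the sexes for none of the 7 genes and for 0% of all genes (limma, adjusted p at most 0.05). None of the 7 reached an unadjusted p under 0.05, while 672 of the 16304 genes tested did. The largest difference of level effects was that of Cacnb1, -0.37 ± 0.22 (SE, 95% confidence interval -0.82 to 0.08). The widest interval was that of Cacna2d3, from -0.90 to 0.44, and the narrowest that of Cacnb4, from -0.39 to 0.38, so differences within each gene's own interval were not resolved with 5 donors a sex.

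Females and males were also compared within each level. None of the 7 genes was differentially expressed in sacral neurons, where 0.0368% of all genes were, and none in lumbar neurons, where 0.0427% were (limma, adjusted p at most 0.05). At an unadjusted p under 0.05 stood 1864 of 16386 genes tested in lumbar and 1328 of 16321 in sacral neurons (limma). Of the 7, 3 were higher in female lumbar neurons at that limit and 0 differed in sacral neurons. Those 3 were Cacnb3, Cacnb1 and Cacna2d2, at 0.44 ± 0.15, 0.47 ± 0.17 and 0.37 ± 0.18 female minus male (SE). Their adjusted p was 0.33, 0.33 and 0.44, so they did not pass the correction. With voom on the reads worked back from the values, 0 of the 7 passed in either level or in the test of the level effects between the sexes.

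**Figure D3:**
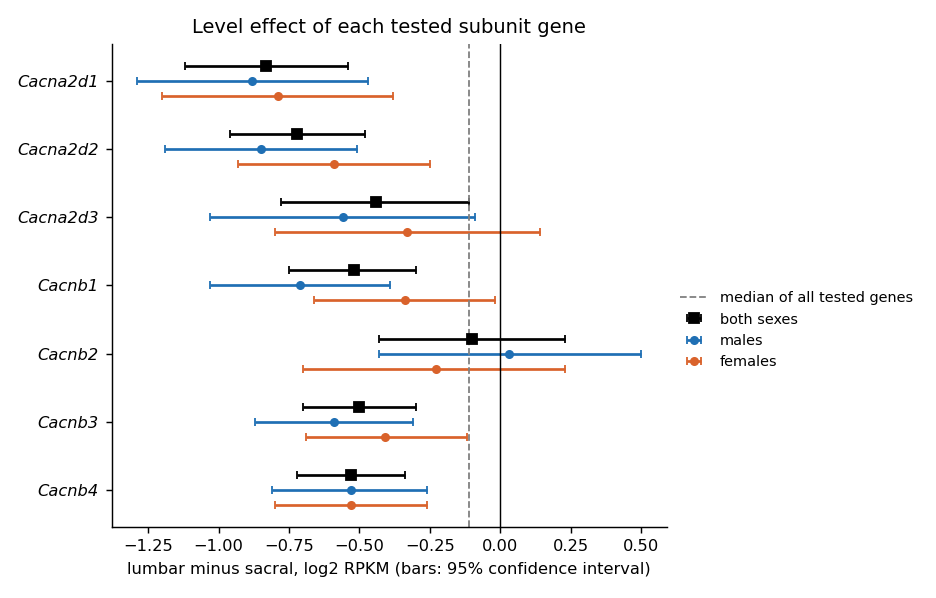
Points give lumbar minus sacral log2 RPKM of each tested gene over both sexes (black), in males (blue) and in females (orange), with 95% confidence intervals, and the dashed line marks the median of all tested genes at -0.11. All intervals of Cacna2d1, Cacna2d2, Cacnb3 and Cacnb4 lie left of that line, and those of Cacnb2 cross 0.

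Because neuronal markers also rose in sacral libraries, each gene was set against the mean log2 RPKM of the 5 neuronal markers in the same library. That mean was 6.53 ± 0.28 in lumbar and 7.08 ± 0.14 in sacral libraries (SD, n = 10), higher in the sacral library of 10 of 10 donors. Relative to it, Cacnb1, Cacnb3, Cacnb4 and Cacna2d3 were at 0.03 ± 0.22, 0.05 ± 0.19, 0.02 ± 0.24 and 0.11 ± 0.50 (lumbar minus sacral, SD of 10 donor differences). None of these passed the exact sign-flip permutation test against this mean, with adjusted p from 0.45 to 0.83. The level effects of Cacnb1, Cacnb3 and Cacnb4 (-0.52, -0.50 and -0.53) were close in size to the neuronal marker difference of -0.55.

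Cacna2d1 remained lower in lumbar neurons, by this measure at -0.28 ± 0.26 (SD of donor differences), with 8 of 10 donors below 0 and an adjusted p of 0.026 (exact sign-flip permutation test over 15318 genes). Cacna2d2 was at -0.17 ± 0.22, with 7 of 10 donors below 0 and an adjusted p of 0.065 in the same exact test. By this measure 2.31% of all genes were higher in sacral and 57.7% higher in lumbar neurons, and the median gene was at 0.42. Cacnb2 was among the latter, at 0.45 ± 0.41, with 2 of 10 donors below 0 and an adjusted p of 0.02 in the exact test. The adjustment takes both directions together, so with this many lumbar calls it was slight. For Cacna2d1 the exact test gave 0.014 before it. The adjusted p therefore does not give the false share among the few genes higher in sacral neurons.

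All these values, and the strength of the adjustment, depended on the reference. Against Snap25 alone, the marker with the smallest level effect, Cacnb3 and Cacnb4 were at -0.28 ± 0.24 and -0.31 ± 0.18 and passed the exact test (adjusted p = 0.018 and 0.013), while Cacnb1 was at -0.30 ± 0.32 (0.051). Against Eno2 alone, the marker with the largest, Cacnb1, Cacnb3 and Cacnb4 turned to 0.32 ± 0.29, 0.34 ± 0.22 and 0.31 ± 0.28, with adjusted p = 0.015, 0.006 and 0.006 in the exact test, and Cacna2d3 to 0.40 ± 0.51 (0.048). Against Rbfox3, Uchl1 or Tubb3 alone none of these 4 genes passed.

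Cacna2d2 was at -0.50 ± 0.33 against Snap25, -0.20 ± 0.16 against Rbfox3 and -0.24 ± 0.21 against the markers without Eno2, and passed the exact test in each case (adjusted p = 0.013, 0.024 and 0.009). It also passed against the markers without Tubb3 or without Uchl1 (0.03 and 0.048). Against Eno2, Tubb3 or Uchl1 alone it was at 0.12 ± 0.28, -0.07 ± 0.28 and -0.19 ± 0.33 and did not pass (0.21, 0.49 and 0.16). Nor did it pass against the markers without Snap25 or without Rbfox3, or against the mean of the 7 Trpv1-neuron genes (0.29, 0.16 and 0.1). Cacnb2 was at 0.12 ± 0.32 against Snap25, where its call was lost (adjusted p = 0.36, exact test).

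Cacna2d1 was at -0.61 ± 0.34 against Snap25 alone and -0.31 ± 0.30 against Rbfox3, and passed the exact test (adjusted p = 0.018 and 0.016). It was at -0.30 ± 0.40 against Uchl1 and -0.19 ± 0.26 against Tubb3 and did not pass (0.079 and 0.071). Against Eno2, whose own difference was as large as that of Cacna2d1, it was at 0.01 ± 0.27 and did not pass (0.95). Against the marker mean without Snap25 it missed the threshold (0.059, exact test), and it passed without each other marker in turn. Against the mean of the 7 Trpv1-neuron genes Cacna2d1 was at -0.28 ± 0.15 (0.0071, exact test). That mean includes Calca and Tac1, which were not called between the levels (0.16 ± 0.09 and -0.10 ± 0.08, SE), while the other 5 were upregulated in sacral libraries. Over these references, over the marker means without 1 marker and over the means without 1 donor, the adjusted p of the exact test ran from 0.0071 to 0.95.

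**Figure D4:**
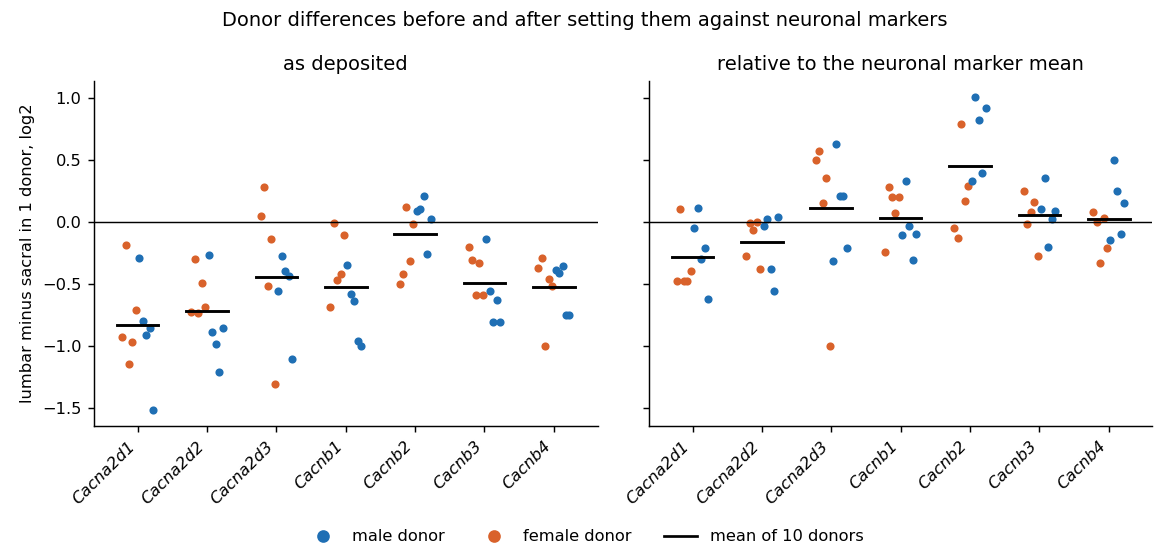
Each point is lumbar minus sacral log2 RPKM of 1 donor (blue male, orange female), as deposited (left) and relative to the mean of 5 neuronal markers in the same library (right), and black lines are means of 10 donors. The means of Cacnb1, Cacnb3 and Cacnb4 move from about the marker difference of -0.55 to between 0.02 and 0.05, and Cacna2d1 stays below 0 at -0.28.

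With the mean of the 10 glial markers as a covariate in the fit, none of the 7 genes was called and their differences lay between -0.14 and 0.27, while 79 genes were called in all. With the neuronal marker mean as the covariate, none was called either, the differences lay between -0.16 and 0.18, and 54 genes were called. The glial mean ran from 6.30 to 7.40 in lumbar and from 5.40 to 6.49 in sacral libraries and was lower in the sacral library of 10 of 10 donors. In these fits the level and the marker content of the libraries cannot be told apart.

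The rest of the channel complex was read from lists of genes. Of 10 pore genes, 6 were tested and all 6 were upregulated in sacral neurons, with a median of -0.82, where 30.4% of all genes were. With the glial or the neuronal covariate none of the 6 was called and the median was -0.20 or -0.28. Cacna1e, the R-type pore, had the largest difference at -1.55 ± 0.21 (SE), 2.92-fold, followed by Cacna1b, the N-type pore, at -0.99 ± 0.15, and Cacna1h and Cacna1i, both T-type pores, at -0.98 ± 0.12 and -0.65 ± 0.20. Cacna1d, Cacna1f, Cacna1g and Cacna1s were below the limit on low values. Cacna1a was at the edge of the call and lost it with TMM scaling, which left 5 of 6.

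Of 8 genes named as gamma subunits, several of which are better known as auxiliary subunits of AMPA receptors, 5 were tested. Cacng3, Cacng5 and Cacng7 were upregulated in sacral neurons, at -0.91 ± 0.16, -0.80 ± 0.08 and -0.37 ± 0.10 (SE), and Cacng4 in lumbar neurons, at 0.59 ± 0.19. These counts of 3 and 1 stand beside 30.4% and 15.3% of all genes. With quantile normalization they were 2 and 1, and with scaling to total reads 4 and 0. Cacng2 was at -0.51 ± 0.27 and was not called. With the glial or the neuronal covariate 1 of the 5 was called, in sacral neurons, and the median was -0.36 or -0.35.

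Of 15 genes for known partners of these subunits, 12 were tested, 5 were upregulated in sacral and 4 in lumbar neurons, beside 30.4% and 15.3% of all genes. With the glial or the neuronal covariate none of the 12 was called, and their median was -0.12 or -0.14. Without a covariate, the split was 8 and 2 with scaling to total reads and 4 and 2 of 11 tested with quantile normalization. Those up in sacral neurons were release site and channel adaptor genes: Rimbp2, which links channels to the active zone, was at -0.91 ± 0.17, the adaptor Stac at -0.59 ± 0.09, and the active zone genes Rims2 and Rims1 at -0.54 ± 0.10 and -0.47 ± 0.11, beside Stac2. Those up in lumbar neurons were genes of extracellular or surface partners of alpha2-delta. Thbs4, a secreted thrombospondin, was at 2.55 ± 0.56, with at most 303 reads and no value in 1 library, Lrp1 at 0.79 ± 0.13, and Thbs3 and Thbs2 at 0.65 ± 0.25 and 0.53 ± 0.21. Cachd1, an alpha2-delta-like gene, Thbs1 and Gem, an inhibitor that acts through beta subunits, were at -0.14 ± 0.14, -0.40 ± 0.22 and -0.04 ± 0.16 and were not called. Beside these values, 4 of 5 fibroblast and 4 of 5 vessel markers were upregulated in lumbar libraries and Rgs5, of the vessel list, in sacral libraries, with a summed RPKM of 71.1 to 324 and 91.9 to 181 in lumbar and of 77.8 to 178 and 95.8 to 196 in sacral libraries. Their part in the thrombospondin values was not tested.

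**Figure D5:**
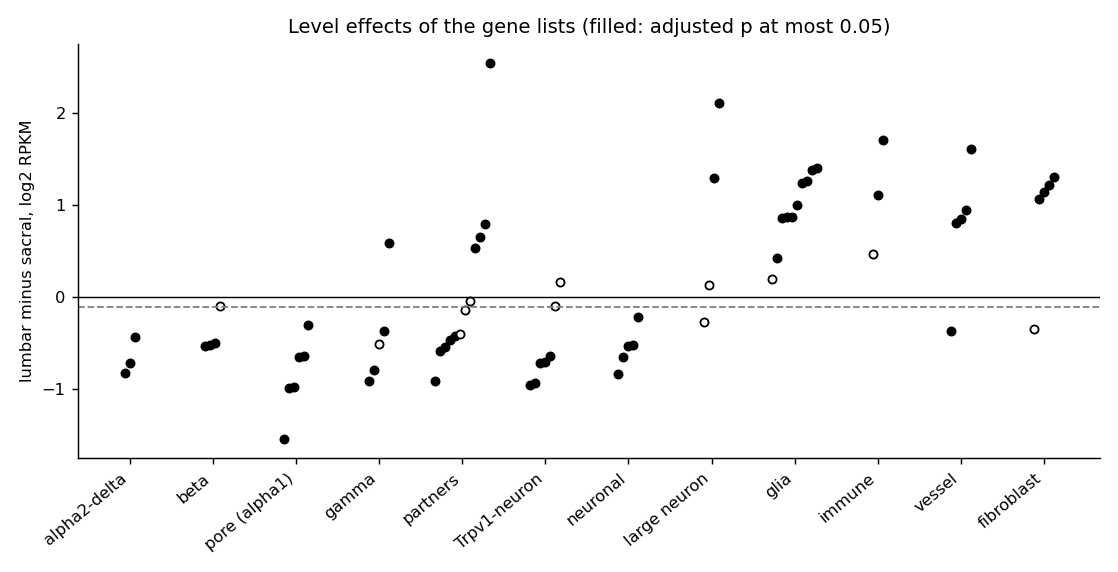
Each point is the level effect (lumbar minus sacral log2 RPKM) of 1 tested gene, filled where the adjusted p was at most 0.05, by list, with the dashed line at the median of all tested genes, -0.11. The subunit, pore and neuronal lists lie below 0 and the glial list above it.

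Among the 15317 other genes with a value in all 20 libraries, those whose log2 RPKM followed Cacna2d1 most closely included Ppfia2, a presynaptic scaffold (Pearson r = 0.981), Tmeff2 (0.976), the mitochondrial carrier Slc25a12 (0.975) and Tmx4 (0.974). For Cacna2d2 they were Cdhr1 (0.973), Nacad (0.971), the axonal kinesin Kif1a (0.968), the adhesion gene L1cam (0.965) and Disp2 (0.964). These coefficients describe 20 libraries that share the level difference and 10 donors. The genes named here were themselves upregulated in sacral neurons, between -1.05 and -0.52, so the shared level difference is part of each coefficient.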

How the data were processed

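RNA was sequenced from 20 libraries of Trpv1-sorted DRG neurons, 5 in each of 4 groups (sex by level), grouped by their labels. The authors used Subread to align reads to mm9 and featureCounts to count them per Ensembl gene, and deposited log2 RPKM, after TMM and voom, as the methods and the submitters' processing notes give them (Subread 1.18 and 1.20.6, limma 3.26.9, edgeR 3.12.1). Every library has the same median of 0.93, by a step not given in the sources used here, and cells without reads are empty. The RNA was amplified before library preparation, and no use of strand is stated.

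Reads per gene were worked back from the steps of the deposited values, and 98.1% of values up to 5000 reads came out whole within 0.01 of a read. Of 37620 genes, 37205 were matched to the GENCODE M1 annotation of NCBIM37. Coding sequences came from its transcripts and were checked against the genome.

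Level effects were fitted to the deposited values in R 4.3.3 (limma 3.58.1, statmod 1.5.0), with no pseudocount, 4 group means, the donor as a random block (correlation 0.17) and moderated variances that follow a mean-variance trend. P-values were adjusted by Benjamini-Hochberg over all genes tested. Genes were kept at a mean above -1 in at least 1 group with at least 3 values, which left 16422. The fit used the values a gene had. The pairing rests on shared animal numbers. Deviations from the group means correlated at 0.18 on average within donors (lowest 0.039) and at -0.044 between other donors of a sex. Values relative to neuronal markers were tested by an exact, two-sided sign-flip test over 10 donors. The labels do not say more of the donors, so p-values measure the spread between these samples.

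All 8 genes are named, with up to 4 called genes per direction from each list and the 5 closest genes for Cacna2d1 and Cacna2d2. Not every gene that this rule covers is reported here. The overlapping genes and the donors singled out were chosen after their values were seen. The genes and lists were chosen with earlier results of these data known. A comparison of the proteins was not run. Alternatives were other scalings, pseudocounts, filters, donor models, variance models, library weights, marker covariates, single sexes, each donor left out and voom on the reads worked back. The neuronal covariate, scaling to total reads and the values relative to markers were added after seeing the data. Plots were drawn with matplotlib 3.10.9 in Python 3.11.15.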

Additional observations from a re-analysis of the deposited data

Results flagged for a closer look

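Cacnb4 stood at 3.01 log2 RPKM in the sacral library of male donor 2, apart from the other 9 sacral libraries, which ran from 3.43 to 3.80. The gap was 0.53 of the range of the 10 libraries, above the 95% limit for a group of that size. This was 1 of 46 sets of libraries examined over the 8 genes, and chance alone marks about 5% of such sets. The lumbar library of the same donor was also the lowest of its level for Cacnb4, at 2.60.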

How the results depend on the processing

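Under other scalings, pseudocounts, filters, variance models and library weights, without the donor block, with the donor as a fixed term, and without each donor in turn, Cacna2d1, Cacna2d2, Cacnb1, Cacnb3 and Cacnb4 kept their direction and their call. Cacna2d3 lost its call in 9 of 29 alternatives, and its adjusted p over them ran from 4.1e-04 to 0.91. Leaving out each donor gave 5 to 6 genes of the 7 and 6633 to 7490 of all genes. With no replicate block the pairing was ignored, and 5 of the 7 genes and 6591 of all genes were called, since Cacna2d3 missed the threshold (adjusted p = 0.051, limma). The block changed no other call of the 7.

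The glial covariate left 0 of the 7 genes and 79 of all genes, with Cacna2d3, Cacnb2 and Cacnb3 turned to 0.27, 0.04 and 0.05. The neuronal covariate left 0 and 54, with Cacna2d3 and Cacnb3 at 0.18 and 0.03. Relative to the neuronal marker mean, Cacna2d3, Cacnb1, Cacnb2, Cacnb3 and Cacnb4 turned to 0.11, 0.03, 0.45, 0.05 and 0.02, and Cacna2d1 set against Eno2 alone turned to 0.01. Without male donor 3, 4 or 5, Cacna2d1 relative to the marker mean missed the threshold, at -0.28, -0.29 and -0.25. Cacnb2 turned to 0.01 with TMM factors and to 0.03 both in male donors alone and with voom, and scaling to total reads called it at -0.43. Male donors alone gave 4600 genes, with Cacna2d3 among the 6 of the 7 called, and female donors alone 3632, each with fewer libraries. Median shares differed from mean shares by less than 1 SD. Cacna2d4 rested on at most 14 reads in a library, too few for a comparison.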
